A study of Mus musculus with 8 samples.

Results

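The genes described here are 10 markers of the surface and of the subsets of fibro-adipogenic progenitors (FAPs), the mesenchymal cells that lie between muscle fibers. They are Pdgfra, Pdgfrb, Ly6a, Cd34, Dpp4, Pi16, Dpt, Vcam1, Thy1 and Cxcr4, chosen by symbol, and all 10 were found among the 55276 genes of the deposited tables. RNA was sequenced from GFP+ FAPs of the tibialis anterior muscle after freeze injury, with 2 libraries in each of 4 groups: control and Osr1cKO at 3 and at 7 days post-injury (dpi). Control mice were Osr1 flox/+ and Osr1cKO mice Osr1 flox/flox. Both carried CAGG-CreER, a tamoxifen-inducible Cre active in all cell types rather than in FAPs alone, and all 4 groups received tamoxifen on the day of injury and the days after it. Recombination puts GFP in place of Osr1, so controls kept 1 intact allele and carried 1 GFP allele, while Osr1cKO cells carried 2. The mice were adults of 4 to 6 months. A library held 1 mouse at 3 dpi and 4 pooled mice at 7 dpi, and the sources name sequencing instruments of different read length without settling which day ran on which. Day, number of mice per library and instrument therefore cannot be told apart. The gate took Lin-, Sca-1+, α7-integrin-, GFP+ cells, where Lin- leaves out cells stained for CD31, CD45 or TER-119, the surface antigens of endothelial, blood and erythroid cells. Sca-1 is the protein of Ly6a, so both genotypes were selected for it.

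FAPs are commonly recognised by PDGFRα, a receptor tyrosine kinase for platelet-derived growth factors, and by Sca-1, a GPI-anchored surface protein. Within the fibroblasts of many tissues, cells positive for the peptidase DPP4, for the secreted protease inhibitor-like protein PI16 and for the sialomucin CD34 lie around vessels and in fascia and are regarded as a progenitor-like state, and DPT (dermatopontin, a matrix protein) is shared widely among resting fibroblasts. VCAM1 is an adhesion molecule that marks FAPs after injury, THY1 (CD90) a GPI-anchored glycoprotein of fibroblasts and T cells, PDGFRβ a receptor of fibroblasts and pericytes, and CXCR4 the receptor of the chemokine CXCL12. Several of these are also made by other cells, CD34 and VCAM1 by endothelium and CXCR4 by leukocytes.

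Values are TPM, a length-normalized share of all transcripts, so levels of different genes can be compared. The depth recovered from the low values lay between 36516544 and 51096361 fragments per library. Of the members, Cxcr4 had the fewest recovered fragments, 88 to 264 per library, and Dpp4 had 455 to 2751. The other 8 had at least 5921 in each library, so counting error bears mainly on Cxcr4. With 2 libraries per group, p-values measure only the spread between these libraries. In bulk RNA, fewer cells of a type and less RNA per cell cannot be told apart. Osr1 itself, which checks the labels, stood at 105 and 91.0 TPM in control, against 70.7 and 71.9 TPM in Osr1cKO at 3 dpi, and at 67.6 and 71.6 against 64.4 and 60.8 TPM at 7 dpi. It was lower in both Osr1cKO libraries at each day. Libraries of the genotypes did not overlap for 36.2% of all genes tested at 3 dpi and 53.5% at 7 dpi. The pattern is thus a weak check of the labels. The Osr1 value covers the whole gene and not the deleted exon alone. From these RNA-Seq data the paper reports that the floxed exon was efficiently removed, which whole-gene values cannot show.

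The label of the cells was checked against marker lists. All 8 FAP markers (Pdgfra, Ly6a, Dcn, Lum, Col1a1, Col3a1, Prrx1 and Twist2) had a mean of at least 1 TPM, and their sum was 26440 to 53700 TPM. Ly6a does not test the label here, since the gate selected for its protein. The markers of other cells summed far lower: 11.0 to 64.4 TPM for macrophages and other myeloid cells, 0.181 to 5.87 for lymphoid cells, 3.43 to 23.2 for endothelium, 50.1 to 177 for pericytes and smooth muscle, 5.52 to 41.8 for muscle stem cells, 2.13 to 15.9 for Schwann cells, 0 to 45.5 for erythroid cells and 6.52 to 55.2 for myofibers. Of these lists only the lymphoid one held markers at 0 in all 8 libraries, Cd8a and Ms4a1. Most of the FAP sum was collagen, Col1a1 at 12404 to 28083 and Col3a1 at 6401 to 19203 TPM. The tenocyte list, most of it Thbs4, a matrix gene, moved with genotype and day. It stood at 578 and 815 TPM in control, against 1831 and 1599 TPM in Osr1cKO at 3 dpi, where 2 of 6 markers, Thbs4 and Kera, were called higher (1 of 6 without control replicate 1). At 7 dpi it was 2417 and 2664 against 3177 and 3616 TPM, with none called (1 without control replicate 1). Control replicate 1 at 3 dpi stood apart. It had the lowest Col1a1, Col3a1 and Lum of that day, and with them the lowest FAP sum (26440 TPM), but the highest Pdgfra, Ly6a, Dcn, Prrx1 and Twist2. It also had 23.2 TPM of endothelial markers, 16.8 of it Kdr, against 6.58 in the other control and 3.91 and 3.43 in Osr1cKO libraries of that day. Control replicate 1 at 7 dpi had 41.8 TPM of muscle stem cell markers against 13.6 to 20.0 in the other libraries of that day. Member calls and list counts that use these libraries are also given without them where that ends a call or moves a count by more than 1.5 times.

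**Figure D1:**
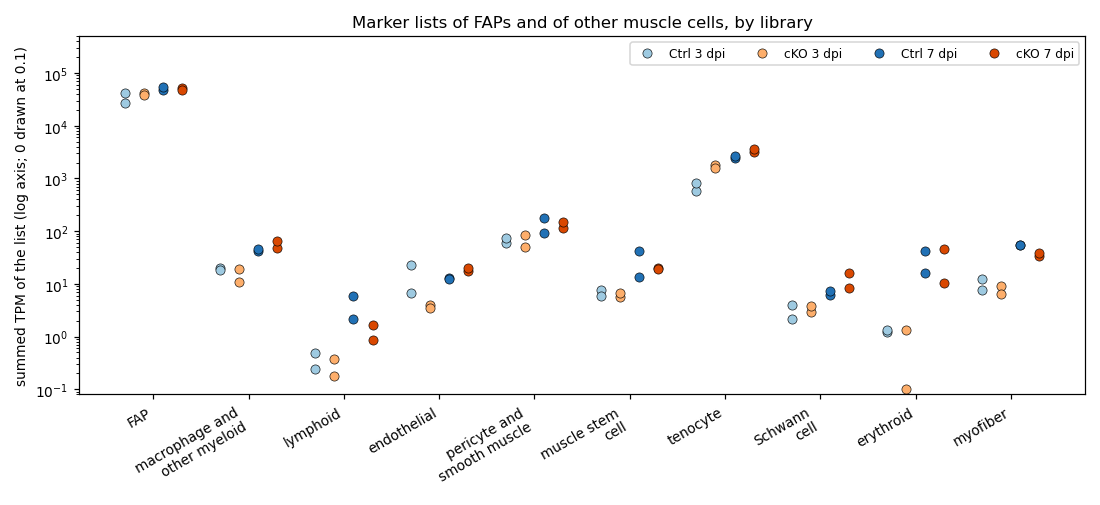
Summed TPM of each marker list (log axis) by library, with 2 points for each of the 4 groups; a sum of 0 is drawn at 0.1. The FAP list lies at 26440 TPM or above in each library. Sums are higher at 7 than at 3 dpi in each genotype for every list, that of FAPs included, except the endothelial list in control.

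The members that rose together from 3 to 7 dpi in both genotypes, as described further on, were Dpt, Pi16 and Dpp4, and their promoters are shown for that reason. RefSeq promoter windows (250 bases before to 50 after the start, GRCm38.p6, the assembly of mm10) were at hand for 6 of the 10 members. The Dpt window is chr1:164796413-164796712 on the plus strand, the Pi16 window chr17:29318632-29318931 on the plus strand and the Dpp4 window chr2:62412182-62412481 on the minus strand. Each is written in the direction of the gene, and capitals mark a match to one of 3 motifs searched on both strands: GAAANNGAA (core of the interferon-stimulated response element), TTCNNNGAA (GAS, the STAT element) and GGANTTTCC (NF-kB).
Dpt: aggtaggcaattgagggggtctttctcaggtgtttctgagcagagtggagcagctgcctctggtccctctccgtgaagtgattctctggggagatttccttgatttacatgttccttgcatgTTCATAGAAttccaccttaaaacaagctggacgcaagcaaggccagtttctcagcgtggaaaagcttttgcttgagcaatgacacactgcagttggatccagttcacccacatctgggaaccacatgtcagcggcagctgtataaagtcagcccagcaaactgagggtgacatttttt
Pi16: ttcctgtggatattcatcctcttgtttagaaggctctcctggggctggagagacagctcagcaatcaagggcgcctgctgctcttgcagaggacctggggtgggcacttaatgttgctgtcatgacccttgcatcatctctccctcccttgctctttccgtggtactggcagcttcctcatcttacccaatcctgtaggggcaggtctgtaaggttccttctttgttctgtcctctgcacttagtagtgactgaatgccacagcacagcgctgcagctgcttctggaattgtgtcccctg
Dpp4: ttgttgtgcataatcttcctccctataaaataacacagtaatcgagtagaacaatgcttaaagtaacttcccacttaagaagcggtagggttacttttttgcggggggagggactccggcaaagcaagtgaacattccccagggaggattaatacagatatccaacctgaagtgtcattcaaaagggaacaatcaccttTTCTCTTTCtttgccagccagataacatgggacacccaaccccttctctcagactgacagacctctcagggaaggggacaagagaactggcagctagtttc
The Dpt window held 1 GAS match, TTCATAGAA, 128 to 120 bases before the start. The Dpp4 window held 1 match to the interferon-stimulated core on the opposite strand, TTCTCTTTC, 51 to 43 bases before the start. The Pi16 window held none of the 3, and neither did those of Pdgfra, Cd34 and Cxcr4. Among all 32851 promoter windows of this length, 8.56% held the interferon-stimulated core, 8.30% the GAS letters and 1.25% the NF-kB letters, so single matches are common. The windows of Dpt, Pi16 and Dpp4 had a GC content of 48.7%, 53.3% and 45.3% and held 4, 3 and 4 CG pairs, against a median of 52.7% and 7 over all windows. A match here is a description of letters and not of binding.

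Ly6a was the most abundant member at 3 dpi and Dpt at 7 dpi. In control FAPs at 3 dpi the means fell in the order Ly6a (4819 ± 831 TPM, SD, n = 2 here and below), Dpt (594 ± 66.2), Thy1 (462 ± 161), Pdgfra (353 ± 17.7), Pdgfrb (339 ± 30.01), Cd34 (183 ± 91.4), Pi16 (102 ± 25.8), Vcam1 (80.6 ± 38.2), Dpp4 (9.73 ± 5.76) and Cxcr4 (4.71 ± 1.25). The libraries of neighbours overlapped from Dpt to Pdgfrb and from Cd34 to Vcam1, and the other neighbours stood apart. In Osr1cKO FAPs at 3 dpi the order was the same except that Pdgfrb (328 ± 63.3) and Pdgfra (295 ± 57.6), whose libraries overlapped, changed places. At 7 dpi it was Dpt, Ly6a, Thy1, Cd34, Pi16, then the PDGF receptors, Vcam1, Dpp4 and Cxcr4 in both genotypes. In control at 7 dpi the libraries of no neighbouring pair overlapped, the closest being Pi16 (231.45 and 317 TPM) and Pdgfrb (229 and 230.78 TPM). In Osr1cKO at 7 dpi, Dpt and Ly6a overlapped, as did the neighbours from Thy1 to Pdgfra. Ly6a ranked between 13th and 90th of all genes in each library, Dpt between 43rd and 279th, and Cxcr4 between 6890th and 10672nd.

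**Figure D2:**
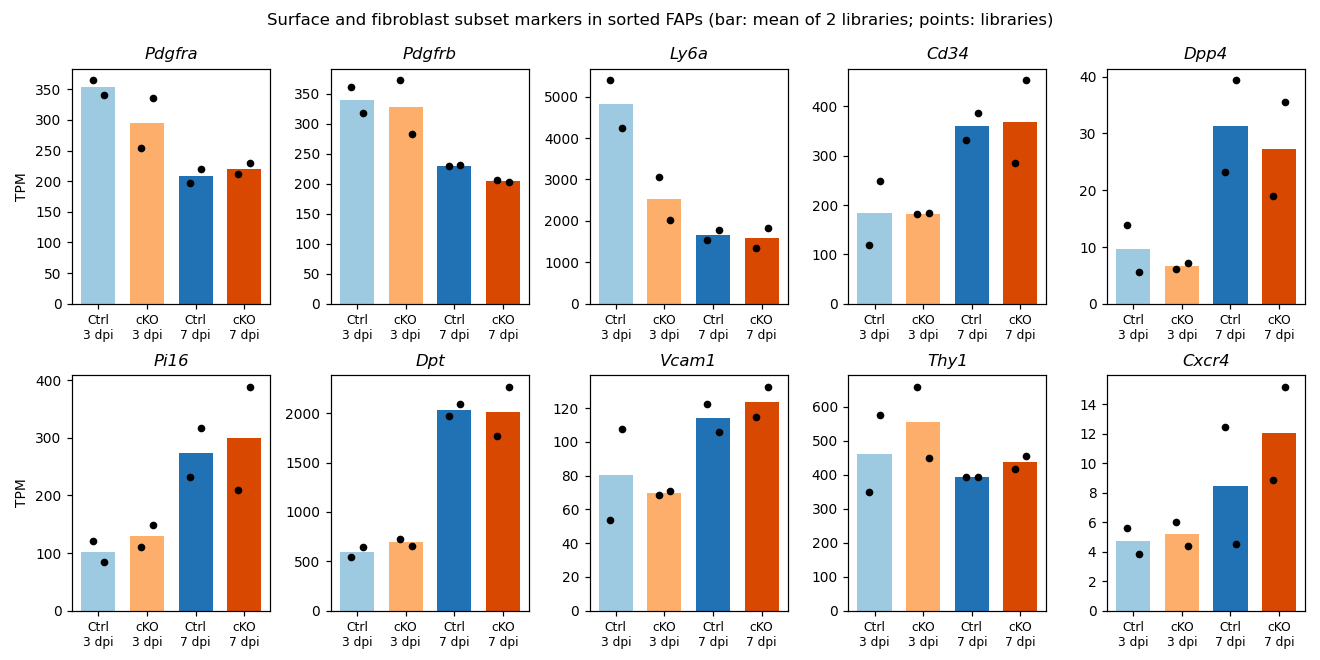
TPM (linear axis from 0, 1 scale per gene) of the 10 members in the 4 groups; bars are means of 2 libraries and points the libraries. Dpt, Pi16, Dpp4 and Cd34 sit higher at 7 dpi than at 3 dpi and Pdgfra, Pdgfrb and Ly6a lower, and at 3 dpi Ly6a is lower in both Osr1cKO libraries (4232 and 5407 against 2020 and 3058 TPM).

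The first comparison asked which members differ when Osr1 is lost, at 3 dpi. Ly6a was lower in Osr1cKO FAPs, and no other member passed the threshold of the study for this day (a fold change over 1.2 and an unadjusted p under 0.05). Ly6a stood at 5407 and 4232 TPM in control, against 3058 and 2020 TPM in Osr1cKO, and the groups did not overlap. The log2 difference was -0.95 (standard error 0.34, 95% interval -1.81 to -0.09), a fold of 0.519, past the threshold of that day but with an adjusted p = 0.781 from limma. The call is thus lost once p-values are adjusted over all genes, as is that of every gene at 3 dpi. It is also lost in 4 of 10 alternatives: with no filter on low values (-0.94, adjusted p = 0.809), with the replicate number as a block (adjusted p = 0.861), without control replicate 1 (-0.78, adjusted p = 0.887) and without Osr1cKO replicate 2 (-0.62, adjusted p = 1.0). Endothelial markers, whose cells also make Sca-1 but whose CD31+ cells the gate leaves out, were higher in both controls of that day (23.2 and 6.58 against 3.91 and 3.43 TPM), and tenocyte markers lower. Of the 23.2 TPM, 16.8 was Kdr alone. The part of either list in the Ly6a difference was not tested.

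Called members numbered 0 higher and 1 lower of 10 at 3 dpi, against 2.38% and 3.89% of the 15699 genes tested. Libraries of the genotypes did not overlap for 3 members, Ly6a, Pdgfra and Dpt, where 36.2% of all genes tested showed this. Pdgfra had 365 and 340 TPM in control, against 254 and 335 TPM in Osr1cKO, a log2 difference of -0.27 (interval -0.71 to 0.16). Dpt had 547 and 641 TPM against 728 and 653 TPM, a log2 difference of 0.22 (interval -0.23 to 0.66). Neither passed the test. Pdgfrb, with 360 and 318 TPM against 373 and 284 TPM, gave -0.06 (interval -0.55 to 0.44), and the ratio of Pdgfra to Pdgfrb ran from 0.681 to 1.18 over the 8 libraries, both ends of it in Osr1cKO at 3 dpi.

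Control replicate 1 and replicate 2 at 3 dpi differed more from each other for some members than the genotypes did. Cd34 had 119 and 248 TPM in control, against 181 and 184 TPM in Osr1cKO, so that both Osr1cKO libraries lay between the controls. Vcam1 did likewise, with 53.6 and 108 TPM against 68.4 and 71.0 TPM. The log2 differences were 0.08 (interval -0.83 to 1.0) for Cd34 and -0.12 (interval -0.99 to 0.74) for Vcam1, and each would change its sign and be called with 1 control left out: without replicate 1 Cd34 gave -0.46 and Vcam1 -0.63, and without replicate 2 Cd34 gave 0.61 and Vcam1 0.37. The adjusted p for these 4 values ran from 0.167 to 0.630. Dpp4 had 13.8 and 5.66 TPM in control, against 6.10 and 7.14 TPM in Osr1cKO, and its difference of -0.39 (interval -1.42 to 0.65) became -0.96 without control replicate 2, which passed the threshold of that day (adjusted p = 0.175), and turned to 0.18 (adjusted p = 1.0) without control replicate 1. Pi16 had 120 and 84.0 TPM against 111 and 148 TPM, a difference of 0.35 (interval -0.23 to 0.93). Without control replicate 1 it became 0.59, which passed the threshold of that day, set on unadjusted p. Thy1 (348 and 576 against 659 and 449 TPM) and Cxcr4 (5.60 and 3.83 against 5.99 and 4.39 TPM) overlapped between the genotypes, with log2 differences of 0.28 (interval -0.56 to 1.12) and 0.12 (interval -0.56 to 0.80).

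The second comparison asked which members differ between the genotypes at 7 dpi. None of the 10 passed the threshold of that day in either direction (an adjusted limma p below 0.1 with a change of more than 1.2-fold). Of 16578 genes tested, 3 (0.0181%) were called higher and 8 (0.0483%) lower. With DESeq2 and the same cut-offs, the paper called far more genes at this day. The absence of a call here thus says little about a gene. At an unadjusted p under 0.05, 0 members were higher and 1 was lower, Pdgfrb, against 5.21% and 5.91% of all genes. Pdgfrb stood at 229 and 231 TPM in control, against 205 and 203 TPM in Osr1cKO, a log2 difference of -0.30 (standard error 0.07, interval -0.48 to -0.12, adjusted p = 0.279). The replicates differed by a factor of 1.01 in each genotype. The difference is of scaled TPM, with control divided by 0.949 and 0.962 and Osr1cKO by 1.03 and 1.07. The scaling thus makes it larger than the printed TPM show. Libraries did not overlap for Pdgfrb and for Thy1 (394 and 393 against 416 and 456 TPM, log2 difference 0.01, interval -0.18 to 0.21), a pattern that 53.5% of all genes tested shared. Overlap was judged on the deposited TPM and the log2 differences on scaled TPM. Before scaling, 11656 of the 16578 genes tested had a difference above 0.

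The remaining members overlapped between the genotypes at 7 dpi. Ly6a had 1544 and 1789 TPM in control, against 1357 and 1840 TPM in Osr1cKO, a difference of -0.20 (interval -0.63 to 0.22). Pdgfra, with 197 and 220 against 212 and 229 TPM, gave -0.05 (interval -0.26 to 0.15), and Vcam1, with 123 and 106 against 115 and 133 TPM, gave -0.02 (interval -0.29 to 0.25). The members of the CD34, DPP4 and PI16 group had wide intervals: -0.13 (-0.65 to 0.39) for Cd34, -0.34 (-1.18 to 0.50) for Dpp4 and -0.06 (-0.79 to 0.67) for Pi16, with -0.15 (-0.53 to 0.23) for Dpt. In these 4 genes Osr1cKO replicate 1 was lower than replicate 2, at 284 and 454 TPM for Cd34, 19.0 and 35.5 for Dpp4, 209 and 389 for Pi16 and 1765 and 2269 for Dpt. The control replicates differed in the same sense, at 332 and 387, 23.3 and 39.4, 231 and 317, and 1970 and 2095 TPM. Cxcr4 (12.5 and 4.51 against 8.86 and 15.2 TPM) gave 0.43 (interval -0.71 to 1.58). The signs of small differences at 7 dpi depended on the scaling: with the deposited TPM left as they are, the median difference of all genes was 0.11 in place of 0.00, and Pdgfra, Cd34, Pi16 and Vcam1 had positive values (0.080, 0.0016, 0.073 and 0.11).

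The day comparisons asked how the members change between an early and a later stage of regeneration, within each genotype. They took 1 estimate of the spread from all 8 libraries, whether of 1 mouse or of 4 pooled mice. A day p-value in 1 genotype thus also rests on the libraries of the other. In control FAPs, 4 members rose (Dpt, Dpp4, Pi16 and Cd34) and 3 fell (Ly6a, Pdgfra and Pdgfrb) past a fold change of 1.2 with an adjusted p below 0.05. Over all 17371 genes tested, 21.3% were called higher and 24.1% lower. In Osr1cKO FAPs, 3 rose (Dpp4, Dpt and Pi16) and 2 fell (Pdgfrb and Pdgfra), where 18.2% of all genes were called higher and 21.9% lower. Libraries of the days did not overlap for 4 higher and 3 lower members in control, against 34.3% and 40% of all genes, and for 6 higher and 3 lower in Osr1cKO, against 41.3% and 34.8%. Median log2 differences of the members were 0.67 in control and 0.83 in Osr1cKO, beside 0.02 in each for all genes tested.

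Dpt was the member whose rise held in both genotypes under each of the 13 alternatives run. It went from 547 and 641 to 1970 and 2095 TPM in control, a log2 difference of 1.85 (standard error 0.18, interval 1.43 to 2.28, adjusted p = 0.000463), and from 728 and 653 to 1765 and 2269 TPM in Osr1cKO, a difference of 1.47 (interval 1.05 to 1.89, adjusted p = 0.00135). The folds were 3.62 and 2.77. Pi16 went from 120 and 84.0 to 231 and 317 TPM in control, a difference of 1.498 (interval 0.79 to 2.21, adjusted p = 0.00652), and from 111 and 148 to 209 and 389 TPM in Osr1cKO, a difference of 1.08 (interval 0.37 to 1.79, adjusted p = 0.0264). Its call in control held under all 13 alternatives. In Osr1cKO the Pi16 call was lost without any 1 of 3 Osr1cKO libraries, replicate 1 or 2 at 3 dpi (0.88 and 1.26, adjusted p = 0.129 and 0.0502) or replicate 2 at 7 dpi (0.68, adjusted p = 0.132), and with no filter on low values (1.05).

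Dpp4 rose from the lowest levels of the 3. It went from 13.8 and 5.66 to 23.3 and 39.4 TPM in control, a difference of 1.73 (interval 0.75 to 2.72, adjusted p = 0.0137), and from 6.10 and 7.14 to 19.0 and 35.5 TPM in Osr1cKO, a difference of 1.77 (interval 0.78 to 2.76, adjusted p = 0.0147). In control the call was lost without replicate 2 at 3 dpi (1.18, adjusted p = 0.0535) or replicate 2 at 7 dpi (1.39, adjusted p = 0.0871). In Osr1cKO it was lost without replicate 1 or 2 at 3 dpi (1.68 and 1.85, adjusted p = 0.0683 and 0.0510), without replicate 2 at 7 dpi (1.37, adjusted p = 0.0927) and with no filter (1.74). Pi16 was 8.04 to 20.8 times as abundant as Dpp4 in each library.

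Cd34 went from 119 and 248 to 332 and 387 TPM in control, a difference of 1.14 (interval 0.31 to 1.96, adjusted p = 0.0343). It went from 181 and 184 to 284 and 454 TPM in Osr1cKO, a difference of 0.91 (interval 0.08 to 1.74) that missed the threshold with an adjusted p = 0.0762. The control call was lost in 6 of 13 alternatives and fell to 0.56 (adjusted p = 0.0944) without control replicate 1 at 3 dpi, the library of the lowest Cd34. Without replicate 1 or 2 of control at 7 dpi it was 1.23 and 1.05 (adjusted p = 0.0868 and 0.136), without replicate 1 or 2 of Osr1cKO at 3 dpi 1.13 each (adjusted p = 0.0542 and 0.0544), and with no filter 1.11. Vcam1 stood at 53.6 and 108 TPM, then 123 and 106 in control, and at 68.4 and 71.0, then 115 and 133 in Osr1cKO. The differences of 0.66 (interval -0.05 to 1.36, adjusted p = 0.113) and 0.75 (interval 0.04 to 1.46, adjusted p = 0.0847) did not pass. Without control replicate 2 at 3 dpi, Vcam1 gave 1.18 in control (adjusted p = 0.00176) and 0.74 in Osr1cKO (adjusted p = 0.00251). Without control replicate 1 at 3 dpi it gave 0.12 in control and 0.74 in Osr1cKO (adjusted p = 0.00240).

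Markers of other cells, some of which make Cd34, Vcam1, Cxcr4 or Pdgfrb, moved between the days as well. In Osr1cKO the endothelial sums were 3.91 and 3.43 TPM at 3 dpi and 17.6 and 19.6 TPM at 7 dpi, and 6 of 8 markers were called higher. Of the 23.2 TPM of control replicate 1 at 3 dpi, 16.8 was Kdr, which had 1.14 to 2.25 TPM in the other control libraries. In control the sums were 23.2 and 6.58 TPM, then 13.1 and 12.2 TPM, with the sums of 7 dpi between those of 3 dpi. There 4 of 8 markers were called higher, and 1 without control replicate 1 at 7 dpi. Pericyte and smooth muscle sums were 50.1 to 84.5 TPM at 3 dpi and 90.6 to 177 TPM at 7 dpi, and 5 of 8 markers were called higher in each genotype (3 of 8 in control without its replicate 1 of either day). Of the 6 tenocyte markers, 6 were called higher in control and 5 in Osr1cKO. Among all genes tested, 21.3% were called higher in control and 18.2% in Osr1cKO. Over both genotypes, lymphoid sums were 0.181 to 0.490 TPM at 3 dpi and 0.866 to 5.87 TPM at 7 dpi, and myeloid sums 11.0 to 20.2 TPM and 42.3 to 64.4 TPM. Their part in the values of the members was not tested. The gate leaves out CD31+ and CD45+ cells, but not pericytes or tenocytes by a marker of their own.

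The receptors and Ly6a went down between the days. Ly6a went from 5407 and 4232 to 1544 and 1789 TPM in control, a difference of -1.45 (interval -2.09 to -0.80, adjusted p = 0.00518), and this call held under all 13 alternatives. In Osr1cKO, from 3058 and 2020 to 1357 and 1840 TPM, it was -0.72 (interval -1.36 to -0.07) and missed the threshold with an adjusted p = 0.0738. Without Osr1cKO replicate 2 at 3 dpi it was called (-1.04, adjusted p = 0.0429), as it was with limma-voom on recovered fragments (-0.72). Pdgfra went from 365 and 340 to 197 and 220 TPM in control, a difference of -0.68 (interval -1.0 to -0.36, adjusted p = 0.00658), also held under all 13. In Osr1cKO, from 254 and 335 to 212 and 229 TPM, it was -0.47 (interval -0.79 to -0.15, adjusted p = 0.0310), a call lost in 7 of 13 alternatives, with the lowest size, -0.29 (adjusted p = 0.125), without Osr1cKO replicate 2 at 3 dpi. The others were the deposited TPM without further scaling (-0.40), no filter (-0.50), and leaving out either library of either genotype at 7 dpi (-0.48 to -0.44).

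Pdgfrb showed the reverse order of firmness. In Osr1cKO it went from 373 and 284 to 205 and 203 TPM, a difference of -0.73 (interval -1.08 to -0.39, adjusted p = 0.00759), lost only without Osr1cKO replicate 2 at 7 dpi (-0.68, adjusted p = 0.0565). In control it went from 360 and 318 to 229 and 231 TPM, a difference of -0.48 (interval -0.82 to -0.13, adjusted p = 0.0329). That call was lost with no filter (-0.51) and without any 1 library of either genotype except those of Osr1cKO at 3 dpi (-0.54 to -0.43, adjusted p = 0.0504 to 0.137). Thy1 (348 and 576, then 394 and 393 TPM in control, 659 and 449, then 416 and 456 in Osr1cKO) had differences of -0.11 (interval -0.76 to 0.55) and -0.38 (interval -1.04 to 0.27), neither past the threshold. Cxcr4 (5.60 and 3.83, then 12.5 and 4.51 TPM in control, 5.99 and 4.39, then 8.86 and 15.2 in Osr1cKO) had differences of 0.68 (interval -0.35 to 1.71, adjusted p = 0.240) and 0.98 (interval -0.05 to 2.01, adjusted p = 0.113). Without control replicate 2 at 7 dpi these were 1.35 and 0.99 (adjusted p = 0.0365 and 0.0410), and without control replicate 1 at 7 dpi the Osr1cKO value was 0.99 (adjusted p = 0.0428).

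**Figure D3:**
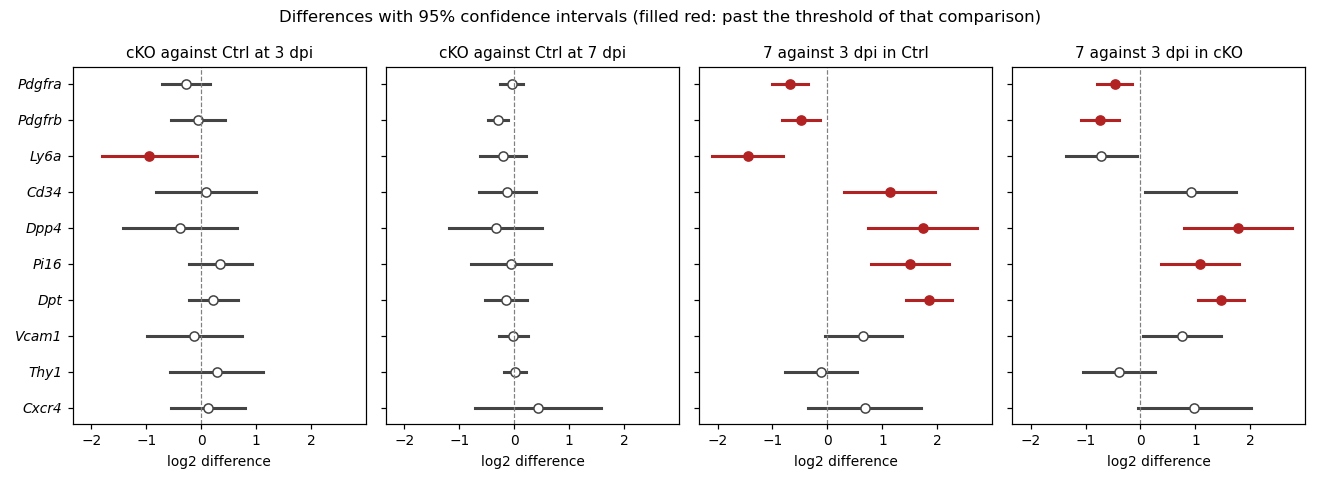
Log2 differences (points) with 95% confidence intervals (lines) of the 10 members in 4 comparisons, from limma; filled red points passed the threshold of that comparison. Intervals of 9 of 10 members include 0 in each genotype comparison, while 7 of 10 in control and 8 of 10 in Osr1cKO lie clear of 0 between the days.

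Whether the genotype difference itself differed between the days was tested as an interaction over the 8 libraries. No member passed an adjusted p under 0.05, where 0% of 17371 genes did. At an unadjusted p under 0.05 it was again none of the 10, against 6.78% of all genes. The member of smallest p was Ly6a, whose interaction of 0.73 (interval -0.18 to 1.64, adjusted p = 0.802) is the genotype difference at 7 dpi minus that at 3 dpi. Differences in which day calls each genotype passed, such as those of Cd34 and Ly6a, are thus not shown to be differences between the genotypes.

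The ligands and counter-receptors of the members were described next, as the partners of each pair. Among the PDGF ligands, Pdgfa (39.2 to 84.5 TPM), which binds PDGFRα, and Pdgfc (19.5 to 62.0 TPM), which does so too, were the more abundant. Pdgfd, a ligand of PDGFRβ, had 5.50 to 22.4 TPM, and Pdgfb 0.0570 to 0.713 TPM. Pdgfd rose between the days, from 6.29 and 7.03 to 13.4 and 14.7 TPM in control (1.05, adjusted p = 0.00841) and from 5.94 and 5.50 to 13.1 and 22.4 TPM in Osr1cKO (1.38, adjusted p = 0.00356), while its receptor gene Pdgfrb fell. Pdgfc had 25.4 and 22.7 TPM in control, against 33.9 and 38.5 TPM in Osr1cKO at 7 dpi, a difference of 0.44 (adjusted p = 0.273) that did not pass.

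Cxcl12, the ligand of CXCR4, had 153 to 431 TPM and Ackr3, a scavenger receptor of CXCL12, 221 to 356 TPM, both far above Cxcr4 (3.83 to 15.2 TPM) in the same libraries. Cxcl12 had 220 and 226 TPM in control, against 277 and 296 TPM in Osr1cKO at 7 dpi, a difference of 0.23 that did not pass (adjusted p = 0.331). Of the integrins that bind VCAM1, Itga4 stood at 0.0109 to 0.173 TPM and Itgb7 at 1.83 to 5.14 TPM, next to 656 to 884 TPM of Itgb1, the common β1 chain. Itgb7 was lower in both Osr1cKO libraries at 7 dpi (3.27 and 3.19 against 4.29 and 5.14 TPM; -0.53, adjusted p = 0.315), which did not pass. Itgav and Itgb3, whose products pair as a THY1-binding integrin, had 54.1 to 102 and 19.7 to 52.8 TPM. Itgav fell between the days in control (-0.45, adjusted p = 0.0304) and in Osr1cKO (-0.69, adjusted p = 0.00710). Of all genes tested, 21.3% rose and 24.1% fell in control, and 18.2% and 21.9% in Osr1cKO. The Itgav call in control was lost without control replicate 2 at 3 dpi (-0.38, adjusted p = 0.101) and without control replicate 1 at 7 dpi (-0.52, adjusted p = 0.0675). In all, 1 of 11 tested rose (Pdgfd) and 1 fell (Itgav) between the days in each genotype (in control 2 and 1 without its replicate 1 at 3 dpi, 1 and 0 without its replicate 1 at 7 dpi), and 0 of 10 at 3 dpi and 0 of 11 at 7 dpi passed between the genotypes.

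Relatives in sequence were examined because reads can be shared. Ly6a (chromosome 15, 74994877 to 74998031, minus strand, mm10) lies in a cluster of Ly6 genes. Of the 1311 windows of 75 bases in its annotated transcripts, 83 (6.33%) also occurred in Ly6c1 or Ly6i, so a small part of its reads cannot be assigned. Ly6c1, a GPI-anchored relative, had 1675 and 992 TPM in control, against 556 and 458 TPM in Osr1cKO at 3 dpi, and was called lower (-1.35, adjusted p = 0.772), also without control replicate 1 (-0.99, adjusted p = 0.443). In control it fell between the days (-1.19, adjusted p = 0.0129), a call lost without control replicate 1 at 7 dpi (-1.05, adjusted p = 0.0744), as did Ly6e (2447 and 1981, then 604 and 585 TPM; -1.81, adjusted p = 0.00508). Ly6e at 3 dpi was 1705 and 768 TPM in Osr1cKO, overlapping neither control, with a difference of -0.94 that did not pass (adjusted p = 0.824). Fap, a membrane peptidase related to Dpp4, was called higher in Osr1cKO at 3 dpi, at 46.3 and 46.7 against 24.8 and 30.5 TPM (0.74, adjusted p = 0.772), and also without control replicate 1 (0.58, adjusted p = 0.534). It rose between the days to 127 and 139 TPM in control (2.31, adjusted p = 0.000152) and to 110 and 129 TPM in Osr1cKO (1.27, adjusted p = 0.000937). Dpp9, a cytosolic relative, fell in both, from 52.7 and 58.1 to 23.5 and 24.8 TPM in control (-1.08, adjusted p = 0.000461) and from 56.7 and 55.8 to 26.7 and 29.4 TPM in Osr1cKO (-1.04, adjusted p = 0.000824).

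Exons of other annotated genes on the opposite strand overlap 6.50% of the exon length of Pdgfra, 3.67% of Dpp4, 3.49% of Pi16, 2.03% of Cd34 and 0.688% of Vcam1, with a microRNA on the same strand inside Pdgfra. The use of strand in counting is not stated, so these parts are uncertain. Pdgfrb, Ly6a, Dpt, Thy1 and Cxcr4 had no such overlap.

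The members were then set beside fibroblast subset lists of which they are often taken as leaders. Among 16 adventitial markers, which accompany Dpp4 and Pi16 elsewhere, 7 rose and 4 fell between the days in control (6 and 2 without control replicate 1 at 7 dpi), with a median difference of 0.15 (0.02 over all genes), and 5 rose and 3 fell in Osr1cKO, with a median of 0.19. Cd55, a complement regulator, went from 19.6 and 21.8 to 59.0 and 93.3 TPM in control (1.87, adjusted p = 0.00235) and from 17.4 and 20.3 to 60.4 and 111 TPM in Osr1cKO (2.0, adjusted p = 0.00237). Efhd1, a calcium-binding protein, rose in control (2.31, adjusted p = 0.00251), and Igfbp6, which binds insulin-like growth factors, rose in Osr1cKO (1.10, adjusted p = 0.00373). Wnt2, a secreted Wnt ligand, fell in Osr1cKO (-1.47, adjusted p = 0.00324), and Anxa3, an annexin, fell in control (-0.76, adjusted p = 0.00252). Efhd1, Igfbp6, Wnt2 and Anxa3 were each called in the same direction in the other genotype as well. The list thus moved in both directions, as all genes did: 21.3% were called higher and 24.1% lower in control, and 18.2% and 21.9% in Osr1cKO. Between the genotypes, 0 rose and 1 fell at 3 dpi (Ly6c1), or 1 and 1 without control replicate 1, and none passed at 7 dpi.

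Among 12 parenchymal markers, 7 rose and 1 fell between the days in control (median 0.98) and 4 rose and 1 fell in Osr1cKO (median 0.27). Of all genes tested, 21.3% rose and 24.1% fell in control, and 18.2% and 21.9% in Osr1cKO. Lum, a collagen-binding proteoglycan, rose from 371 and 521 to 1805 and 1867 TPM in control (2.14, adjusted p = 0.000432) and from 464 and 469 to 1627 and 2021 TPM in Osr1cKO (1.89, adjusted p = 0.000982). Cxcl14, a chemokine, fell from 1789 and 1669 to 647 and 858 TPM (-1.14, adjusted p = 0.00361) and from 2236 and 2665 to 633 and 525 TPM (-2.15, adjusted p = 0.000638). At 7 dpi none of the 12 passed between the genotypes at an adjusted p under 0.1. All 12 had values below 0 there (median -0.47, or -0.34 with the deposited TPM left unscaled), and 8 had an unadjusted p under 0.05 with a fold over 1.2, where 5.91% of all genes were lower by that rule. Without control replicate 1 at 7 dpi, 5 of the 12 passed the threshold of that day, all lower. Penk, the precursor of enkephalins, had 131 and 154 TPM in control, against 78.5 and 83.1 TPM in Osr1cKO (-0.93, adjusted p = 0.113), or -1.05 (adjusted p = 0.0120) without that library. Col15a1 (376 and 368 against 241 and 298 TPM; -0.60, adjusted p = 0.222) and Smoc2 (469 and 525 against 392 and 428 TPM; -0.41, adjusted p = 0.266), genes of matrix proteins, were the next 2 in p. Dpt, often grouped with these genes, had the value of -0.15 given above.

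Among 13 activated fibroblast markers, 1 rose at 3 dpi in Osr1cKO, Fap, and all 13 had values above 0 (median 0.54, against 0.01 over all genes). Without control replicate 1 of that day, 9 were above 0 and 4 below (median 0.33), among these Pdpn (-0.31) and Thbs2 (-0.17), and 2 were called higher. None passed at 7 dpi, and 3 did without control replicate 1 of 7 dpi. Timp1, an inhibitor of matrix metalloproteinases, had 868 and 752 TPM in control, against 1665 and 1194 TPM in Osr1cKO at that day (0.67, adjusted p = 0.322). The paper, with DESeq2, reports Timp1 as upregulated in Osr1cKO at 7 dpi. Of all genes tested between the days, 21.3% rose and 24.1% fell in control, and 18.2% and 21.9% in Osr1cKO. Between the days 4 rose and 2 fell in control (3 and 4 without control replicate 1 at 3 dpi, 2 and 2 without control replicate 1 at 7 dpi), and 2 rose and 2 fell in Osr1cKO, among them Timp1 (-1.86 and -1.72, adjusted p = 0.00422 and 0.00698) and the metalloprotease gene Adam12 (-0.65 and -0.83, adjusted p = 0.00297 and 0.00161).

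Of 17 other FAP markers, 16 were tested. Between the days 7 rose and 6 fell in control, and 6 rose and 4 fell in Osr1cKO. The shares over all genes were 21.3% and 24.1% in control, and 18.2% and 21.9% in Osr1cKO. Hic1, a transcriptional repressor that marks quiescent mesenchymal progenitors, fell from 186 and 185 to 82.6 and 70.6 TPM in control (-1.20, adjusted p = 0.000642) and from 203 and 173 to 74.2 and 72.7 TPM in Osr1cKO (-1.40, adjusted p = 0.000644). Nt5e (CD73) and Lepr, the leptin receptor gene, rose in Osr1cKO (1.5 and 1.52, adjusted p = 0.00126 and 0.00158). Eng, a TGFβ co-receptor, fell in control (-1.34, adjusted p = 0.00109). Nt5e and Lepr were also called higher in control, and Eng was also called lower in Osr1cKO. At 3 dpi Bst1, an ectoenzyme with a GPI anchor as Ly6a and Thy1 have, was called lower in Osr1cKO at 0.50 and 0.414 against 4.24 and 2.54 TPM (-1.56, adjusted p = 0.772), also without control replicate 1 (-1.29, adjusted p = 0.233). Of the 16, no other was called at 3 dpi, where 1 was higher without control replicate 1, and none at 7 dpi. Ackr3, Itgb1, Itgav, Fap and Ly6c1 each stand in 2 of the lists. Pdgfra, Ly6a, Dcn, Lum, Prrx1 and Twist2 also stand in the FAP list that checked the label.

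**Figure D4:**
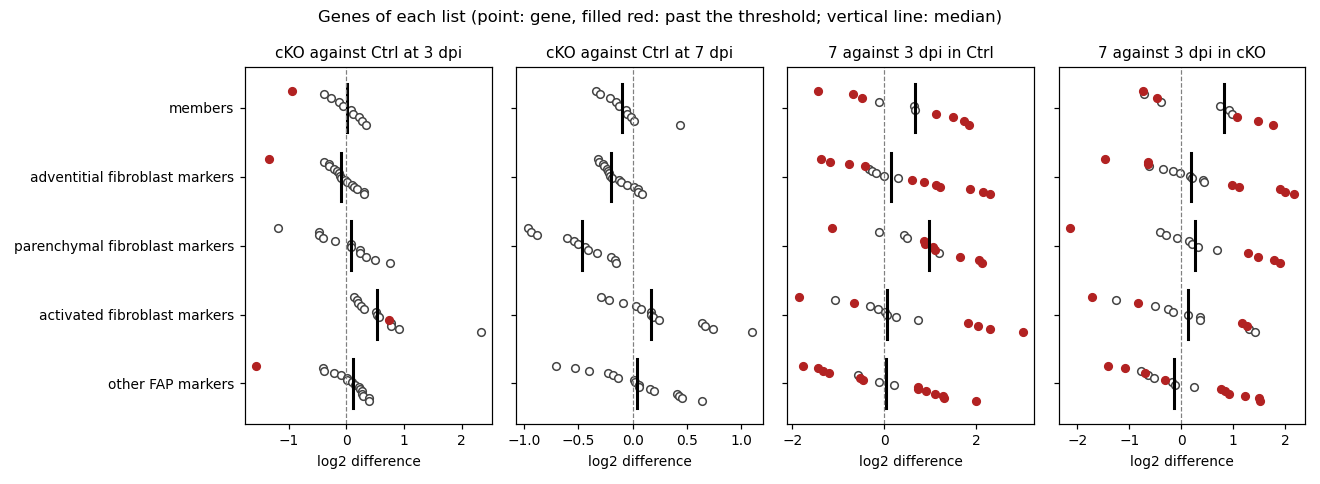
Log2 differences of single genes (points) in the members and 4 fibroblast lists, for 4 comparisons with axes of different range; filled red points passed the threshold of that comparison and vertical lines are medians. In the parenchymal row all 12 points lie below 0 at 7 dpi (median -0.47) and none is filled, and in the day panels each list has filled points on both sides of 0.

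The 3 members with the widest span between their highest and lowest group mean were Dpp4 (2.09 on the log2 scale), Dpt (1.85) and Ly6a (1.63). For each, the 3 genes nearest in pattern were sought among 17371 genes, as the smallest root mean square difference of mean-centred log2 values over the 8 libraries. For Dpp4 they were Cdh13 (0.132), Gsn (0.145) and Cyp27a1 (0.173), and with Dpp4 they shared a high control replicate 1 at 3 dpi (for Gsn 3671 TPM against 1287 to 1603 in the other libraries of that day). For Dpt they were Gadd45a (0.0924), 2810433D01Rik (0.117) and 2610008E11Rik (0.122), with a step between the days and little difference within them. Gadd45a had 29.0 to 36.3 TPM at 3 dpi and 96.2 to 112 TPM at 7 dpi. For Ly6a they were Tdrd7 (0.108), Tmem106a (0.113) and Tapbpl (0.115), each high in control at 3 dpi, lower in Osr1cKO at 3 dpi and lowest at 7 dpi. Tdrd7 had 116 and 97.9 TPM, then 70.4 and 45.3 TPM at 3 dpi, and 35.4 to 44.8 TPM in the 4 libraries of 7 dpi. These likenesses describe 8 libraries that share their depth and normalization.

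**Figure D5:**
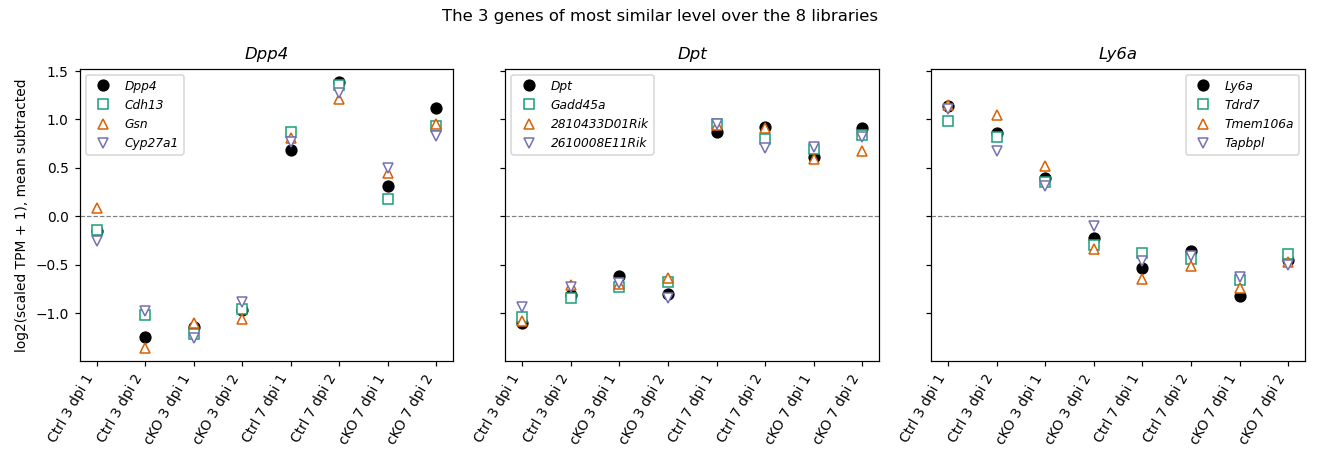
Mean-centred log2(scaled TPM + 1) by library for Dpp4, Dpt and Ly6a (filled circles) and for the 3 genes nearest to each (open symbols). Ly6a and its neighbours step down from control to Osr1cKO at 3 dpi and are lower again at 7 dpi, whereas Dpt and its neighbours lie below 0 in each library of 3 dpi and above 0 in each of 7 dpi.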

How the data were processed

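Stranded libraries of polyadenylated RNA were sequenced from both ends. The authors aligned reads to mm10 with STAR, normalized fragments with DESeq2 and deposited TPM per gene symbol in 1 table per library; the counting program, its annotation and its use of strand are not given in the sources used here. Of 55385 entries, 109 repeated ones (106 symbols) were left out, which left 55276. Exon lengths of GENCODE release M21 (53281 symbols matched, 1995 not) turned TPM into fragments, of which 98.7% to 98.9% of values under 50 lay within 0.02 of a whole number.

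Libraries were brought to a common scale by the mean of the log ratios, after trimming 30% of these from each end. Values of log2(scaled TPM + 1) were tested with limma (lmFit, eBayes with a trend), so differences of low genes are understated. Overlap between libraries was judged on the deposited TPM. Genes needed 10 recovered fragments in 2 libraries and 15 in all (symbols without a length, a mean TPM of 1). Genotypes were fitted per day on 4 libraries, with the thresholds of the paper's methods; day contrasts and the interaction used 8. Adjusted p-values are Benjamini-Hochberg over all genes tested. The procedure was run on simulated data with a set spread and no library that stood apart. That run does not show how it performs on libraries such as control replicate 1 at 3 dpi. The text names all members, their ligands and receptors, Osr1, at most 3 genes per other list and comparison (smallest p, libraries not overlapping) and 3 neighbours in pattern for 3 members; Ly6e, Kdr and values of a named gene in further comparisons were added after seeing values. Members and lists were chosen with earlier results of these data known. Alternatives were no further scaling, a pseudocount of 0.5, no filter, limma-voom on recovered fragments, a replicate block, leaving out each library, swapped thresholds and 1 fit of all 8 libraries. Lists without control libraries that stood apart were counted as an alternative chosen after seeing the data. Tools were limma 3.58.1 in R 4.3.3 and Python 3.11.15 with pandas 2.3.3, NumPy 2.4.6 and matplotlib 3.10.9. Single exons and reads were not analysed here. A gene of the lists is not reported here.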

Additional observations from a re-analysis of the deposited data

How the results depend on the processing

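Of the calls on members, Dpt between the days in both genotypes and Pi16, Ly6a and Pdgfra between the days in control were kept under each of the 13 alternatives run on them. The call of Ly6a at 3 dpi was lost in 4 of 10: with no filter (-0.94), with the replicate block, and without control replicate 1 or Osr1cKO replicate 2. At 3 dpi no filter called 564 genes higher and 0 members lower, an adjusted p under 0.1 gave 0 genes higher, 0 lower and 0 members lower, and 1 fit of 8 libraries gave 870 genes higher and 932 lower. At 7 dpi the deposited TPM without further scaling gave 0 genes higher and 0 lower, as did no filter and 1 fit of 8 libraries, limma-voom gave 74 higher and 114 lower, and an unadjusted p under 0.05 gave 864 higher, 979 lower and 1 member lower. Without further scaling Pdgfra (0.080), Cd34 (0.0016), Pi16 (0.073) and Vcam1 (0.11) turned positive at 7 dpi, and Vcam1 did in 1 fit of 8 libraries (0.00061); the construction of the scaling shifts all genes of a day alike. Between the days in Osr1cKO, no further scaling called 1 member lower, and no filter called 1 higher and 1 lower, with more genes tested. For the interaction no filter called 10 genes higher and 20 lower.

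With each library left out in turn, called members at 3 dpi ran from 0 to 2 higher and 0 to 2 lower, and called genes from 158 (without Osr1cKO replicate 1) to 1124 higher and from 234 (without Osr1cKO replicate 2) to 1676 lower, both maxima without control replicate 2. Values that changed sign at 3 dpi ran from -0.28 to 0.16 for Pdgfrb, -0.46 to 0.61 for Cd34, -0.96 to 0.18 for Dpp4, -0.63 to 0.37 for Vcam1, -0.10 to 0.64 for Thy1 and -0.10 to 0.34 for Cxcr4. At 7 dpi called genes ran from 1 to 163 higher and 4 to 151 lower, and values from -0.13 to 0.020 for Pdgfra, -0.44 to 0.17 for Cd34, -0.74 to 0.064 for Dpp4, -0.47 to 0.36 for Pi16, -0.13 to 0.093 for Vcam1, -0.021 to 0.049 for Thy1 and -0.22 to 1.09 for Cxcr4. Between the days in control, called genes ran from 2123 to 3735 higher and 2568 to 4407 lower, and Thy1 from -0.51 to 0.28. In Osr1cKO they ran from 1674 to 3766 higher and 2103 to 4452 lower, with 1 to 5 members higher and 0 to 2 lower. For the interaction, called genes ran from 0 to 16 higher and 0 to 53 lower, and values from -0.79 to 0.34 for Cd34, -0.51 to 0.58 for Dpp4, -0.44 to 0.63 for Vcam1, -0.68 to 0.12 for Thy1 and -0.36 to 0.97 for Cxcr4. A group left with 1 library is assumed to vary like the others. The cause of these changes was not tested.

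The replicate numbers of control and Osr1cKO libraries are shared in the labels, with no statement of what they pair. Same-numbered libraries had deviations from their group means that correlated at -0.12 across genes at 3 dpi and at 0.07 at 7 dpi. With 2 libraries per group, these values cannot tell whether same-numbered libraries share more than a number. With the replicate block, 0 members were called lower at 3 dpi, 13 genes were higher and 14 lower at 7 dpi, and Cd34 between the days in Osr1cKO was called (0.91); no other call on a member changed.

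Counting error limits Cxcr4, with 88 to 264 fragments a library, and Pdgfb, which lay near the filter. For the other members the spread between 2 libraries is the limit.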
